A study of Mus musculus with 34 samples.

Results

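The cytosolic ribosomal protein genes of mouse embryonic stem (ES) cells were followed through 34 RNA-seq libraries. Members were the protein-coding genes whose mouse symbol is Rpl or Rps and a number, with an optional short suffix, together with Rplp0, Rplp1, Rplp2 and Rpsa. Processed pseudogenes and the Rps6k kinases were left out. The rule found 84 genes, 52 of the large subunit and 32 of the small subunit, among the 48709 genes listed for the triple mutants and the 22018 listed for the single mutants. All 84 passed the filter on low counts in every comparison.

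The libraries came from 129/Ola ES cells in which the MTA proteins, subunits of the Nucleosome Remodelling and Deacetylation (NuRD) complex, had been removed alone or together. The first set held 16 libraries, 4 each of Control and Mta123KO cells labelled 2iL (N2B27 medium with Mek and Gsk3 inhibitors and LIF) and of the same genotypes labelled 48 h in N2B27 without inhibitors or LIF. Control cells were not wild type: they carried floxed Mta3 alleles and a heterozygous Mta1 deletion, and Mta123KO cells were made by replacing or deleting Mta2 exons in Mta1-deleted, Mta3-floxed cells before Cre deletion of Mta3. The second set held 18 libraries in 2iL, 3 each of Mta1_del/del, Mta2_KO and Mta3_del/del cells and of Mta1_flox/flox, Mta2_WT and Mta3_flox/flox cells. The Mta1 and Mta3 mutants derived from their flox/flox parents by Cre, and Mta2_KO was a single line derived apart from Mta2_WT. In the first set each group held 2 lines with 2 libraries each, and libraries of a line may be technical repeats, in which case p-values measure that spread only.

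Each cytosolic ribosome holds one copy of most of these proteins, arranged with ribosomal RNA in a small subunit that reads the messenger RNA and a large subunit that joins amino acids. Most of their transcripts begin with a cytosine inside a run of pyrimidines, the terminal oligopyrimidine (TOP) tract, through which mTOR and Larp1 adjust their translation and stability together. Ribosomal protein genes are also known for their many processed pseudogenes, intronless copies that can draw sequencing reads away from the parent gene.

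The starts of these genes are shown because the pyrimidine tract there is what the family is known to share. Each sequence runs from 10 bases before the RefSeq start on GRCm38.p6 to 20 bases from it, 5′ to 3′ on the gene's strand, and capitals mark the longest run of pyrimidines within it. Rpl27a had the longest run of the members printed here, and Rpl37, Rpl9, Rps12 and Rpl35a fell most in Mta123KO cells labelled 2iL. Rps27 was lower in Mta2_KO, and Rps6 is the S6 kinase target. In Mta123KO, Rplp0 and Rps19 were among the few that rose with the 2iL label, and Rpl39l with the 48 h label.
Rpl27a (chr7:109519185-109519214, plus strand): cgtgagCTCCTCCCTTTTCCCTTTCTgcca
Rpl35a (chr16:33056472-33056501, plus strand): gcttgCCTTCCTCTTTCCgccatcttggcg
Rps12 (chr10:23787190-23787219, minus strand): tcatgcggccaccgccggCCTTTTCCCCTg
Rps6 (chr4:86857348-86857377, minus strand): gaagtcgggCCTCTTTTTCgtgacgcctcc
Rps27 (chr3:90213629-90213658, minus strand): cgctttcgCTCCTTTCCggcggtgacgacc
Rpl39l (chr16:10170218-10170247, plus strand): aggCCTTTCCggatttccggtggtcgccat
Rplp0 (chr5:115559457-115559486, plus strand): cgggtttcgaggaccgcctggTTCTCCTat
Rps19 (chr7:24884903-24884932, plus strand): agcggggtgtggagggCTCTCCCacgcggt
Rpl9 (chr5:65391412-65391441, minus strand): gggCCCTgacggattacaagaacgtgatga
Rpl37 (chr15:5116603-5116632, plus strand): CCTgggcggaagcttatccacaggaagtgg

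The run was 20 bases long in Rpl27a, 13 in Rpl35a and 11 in Rps12, but 4 in Rpl9 and 3 in Rpl37. Rpl35a and Rps19 had several starts, of which the start with the longest run was printed. The other starts had runs of 4 and 5 bases in Rpl35a and of 4 in Rps19. RefSeq promoters were matched for 64 of the 84 members, some with several starts. The letters CTTTC, searched on the sense strand from 20 bases before the start to 30 after it, were present for 22 of the 64 genes (34.4%), against 7.7% of the 27025 genes with a promoter. The letters CCGGAAG, the core of an Ets-type site, were searched on either strand over the 300-base promoters and were present for 26 of the 64 (40.6%), against 9.9% of all genes. In the start of Rpl35a, and in that of Rps27, the CTTTC letters overlap the printed pyrimidine run.

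Total counts ran from 37855790 to 57602285 per library in the triple-mutant set and from 13105820 to 40613585 in the single-mutant set. Counting error was therefore small for all members but Rpl3l, near 1 CPM (counts per 1e6 scaled gene counts). The targeted genes were lower in Mta123KO cells under both labels, with log2 fold changes of −4.17 and −4.53 for Mta2, −1.76 and −1.44 for Mta3, and −0.76 and −0.67 for Mta1, which the controls carry as a heterozygous deletion. The summed level of 6 naive pluripotency genes was 147 to 231 CPM in Control labelled 2iL and 3571 to 3925 CPM in Control labelled 48 h, the reverse of the usual order, and the deposited files carry the other culture in their names, which is why each library is described below only by its label. The summed level of 4 formative pluripotency genes was 752 to 1292 CPM in Control labelled 2iL and 73.4 to 84.6 CPM in Control labelled 48 h. In the single-mutant set the naive sum ran from 3031 to 5611 CPM. Whether labels were exchanged was not tested, and the ratios between the sets below use the 2iL label as given. The general pluripotency genes Pou5f1, Sox2, Sall4 and Utf1 were above 1 CPM in every group. In bulk RNA, a change in the share of cells of one kind and a change in the RNA per cell cannot be told apart.

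Reads of this family were divided very differently in the 2 sets. At least 95% identity over 100 bases or more linked the 84 members to 615 annotated pseudogenes, of which 503 were listed in the triple-mutant files and 23 in the single-mutant files. Of all counts on members and copies, 66.1% to 67.4% fell on the copies in every triple-mutant library and 1.91% to 2.33% in every single-mutant library. Rpl21 had the most copies, 61, and 5 members had none, among them Rps27l, Rpl41, Rpl39l and Rpl3l. The exons of 37 members also overlap another listed gene, as those of Rps12 and Rpl13a overlap small nucleolar RNA genes, and the counts of such members are uncertain.

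The size of the member counts followed the number of copies by class median, with exceptions among single members. CPM in the single-mutant parents was a median of 1.27 times the CPM in Control labelled 2iL for the 16 members with 0 or 1 copy, 5.45 times for the 48 with 2 to 9 copies and 9.85 times for the 20 with 10 or more, against 1.4 times for 7955 protein-coding genes of at least 10 CPM in both. Rps12, which has 21 copies, stood at 42.0 to 49.98 CPM in Control labelled 2iL and at 708 to 1359 CPM in the flox/flox and wild-type libraries of the other set. Rpl41, with none, differed little, at a mean of 659.7 CPM in Control labelled 2iL against 629 CPM over the parents. Rpl13a went the other way, with 831 CPM against 173 CPM. The ratio was also 0.97 for Rpl23a with 20 copies and 2.09 for Rpl29 with 31. It was 53.0 for Rps27 with 4 copies and 40.8 for Rpl24 with 3. Levels are therefore compared only within a set, and member fold changes in the triple mutants are also given with the counts of each member's copies added, an alternative chosen after seeing the data.

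The members took a smaller share of all gene counts in Mta123KO cells under either label. With the 2iL label the share was 1.82%, 1.81%, 1.71% and 1.70% in the 4 Control libraries and 1.52%, 1.52%, 1.57% and 1.65% in the 4 Mta123KO libraries. With the 48 h label it was 1.78%, 1.86%, 1.72% and 1.71% in Control and 1.33%, 1.33%, 1.60% and 1.55% in Mta123KO. Mutant and control libraries did not overlap under either label, and the lowest mutant values under the 48 h label came from line 1. No test was made on this sum.

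With the copies added the shares were higher and ordered alike. They ran from 5.07% to 5.42% in Control and from 4.58% to 5.03% in Mta123KO labelled 2iL, and from 5.15% to 5.58% and from 4.05% to 4.85% with the 48 h label. Mitochondrial genes took 10.4% to 11.9% of counts in the 8 Control libraries and 11.5% to 18.1% in the 8 Mta123KO libraries. Their part in the smaller share of ribosomal protein counts was not tested. Over protein-coding genes, the mitochondrial ones included, the group means in Control and Mta123KO were 2.71% and 2.37% (2iL), and 2.60% and 2.19% (48 h).

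**Figure D1:**
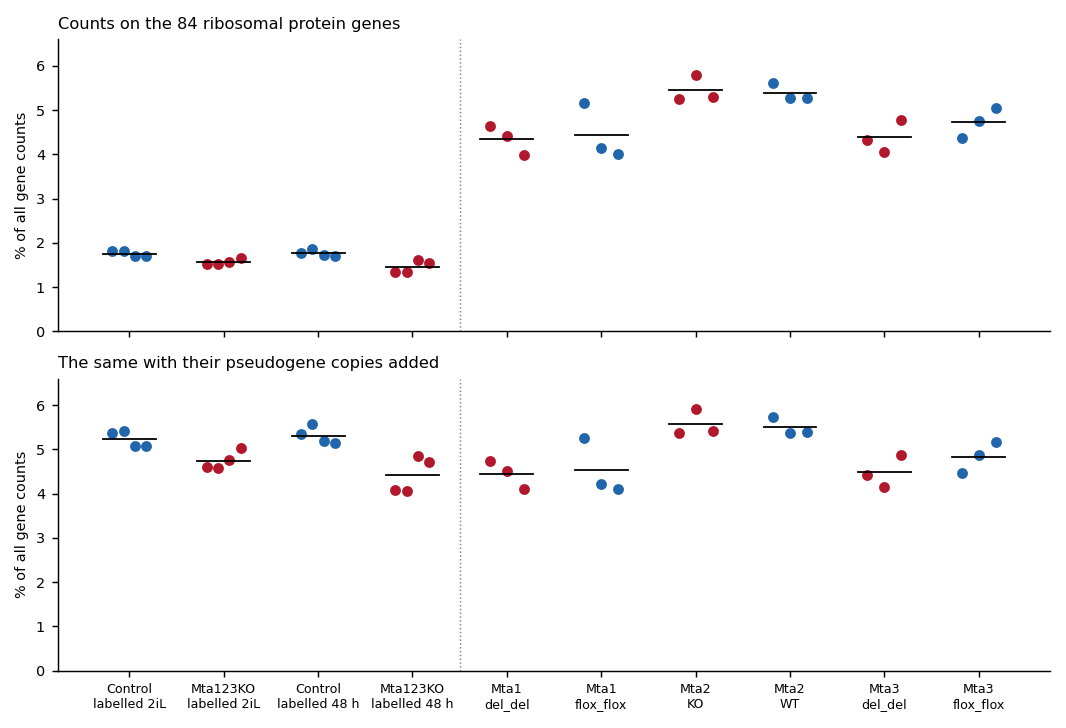
Share of all gene counts, in percent, on the 84 ribosomal protein genes in each of the 34 libraries (upper panel) and on the same genes with their pseudogene copies (lower panel), where points are libraries, lines are group means, red marks mutants and blue marks controls, and a dotted line separates the sets. Without the copies the triple-mutant set lies between 1.33% and 1.86% and the single-mutant set between 3.998% and 5.79%, and with them both sets lie between 4.05% and 5.91%.

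Loss of all 3 MTA proteins was accompanied by lower levels of most ribosomal protein genes in cells labelled 2iL. At an adjusted p under 0.05 (edgeR quasi-likelihood test with Benjamini-Hochberg adjustment over all 21651 genes tested, 4 libraries a group), 53 of the 84 members were lower in Mta123KO, where 24.2% of all genes tested were lower. Only 4 were higher, where 27.1% of all genes were. The median log2 fold change of the members was −0.26 and that of all genes tested 0.01. Every Mta123KO library lay below every Control library for 54 members, against 25% of all genes, and above for 3 members, against 25%.

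The changes were small and shared by both subunits. Of the 52 large subunit genes 35 fell and 2 rose (median −0.27), and of the 32 small subunit genes 18 fell and 2 rose (median −0.24). The fold changes ran from −0.79 for Rpl37 to 0.88 for Rpl29, and no member passed with an absolute log2 fold change above 1. Among 601 other protein-coding genes of at least 50 CPM and under 3000 bases of exon, the median was −0.11 and 34.6% were lower, and for the 46 members of at least 50 CPM it was −0.22 with 56.5% lower. The 78 mitochondrial ribosomal protein genes had a median of −0.20 and the 36 Nduf genes of respiratory complex I one of −0.06.

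Rps12, a small subunit protein, was measured at 49.98, 42.0, 48.1 and 42.7 CPM in Control labelled 2iL and at 24.5, 26.3, 28.5 and 28.8 CPM in Mta123KO. All 4 mutant libraries lay well under the controls, and the log2 fold change was −0.74 (SE 0.08, edgeR adjusted p = 0.000134). Rpl9, of the large subunit, fell from 41.2, 38.9, 39.7 and 35.7 CPM to 22.0, 22.1, 23.3 and 23.4 CPM, a log2 fold change of −0.76 (SE 0.07, edgeR adjusted p = 3.72e-05). The Rpl9 values of the 4 mutant libraries differed from each other by less than those of the controls did.

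Rpl37 and Rpl35a showed the same separation of the groups at different levels. Rpl37 stood at 16.1, 13.8, 14.7 and 14.3 CPM in Control and at 8.69, 9.36, 8.38 and 7.30 CPM in Mta123KO (log2 fold change −0.79, SE 0.10, edgeR adjusted p = 0.000231). Rpl35a stood at 51.8, 48.8, 52.3 and 50.9 CPM and at 28.7, 30.9, 31.5 and 34.6 CPM (−0.68, SE 0.07, edgeR adjusted p = 8.16e-05). Rpl10, which joins the large subunit late in its assembly, fell from a mean of 55.3 ± 3.88 to 35.1 ± 4.38 CPM (SD, n = 4; −0.64, SE 0.10, edgeR adjusted p = 0.000643).

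With the counts of their copies added, the log2 fold changes of these 5 genes were smaller, at −0.30 for Rpl37, −0.32 for Rpl9, −0.38 for Rps12, −0.42 for Rpl35a and −0.36 for Rpl10. Each stayed past the threshold. With copies added, 48 members were lower and 3 higher. These 5 were the members that passed with each line taken as 1 sample, its 2 libraries added together. Their edgeR adjusted p then ran from 0.026 to 0.040. With spike-in scaling 21 members were lower and 1 higher. The medians of members and of all genes were −0.21 and 0.01 with copies added, and −0.22 and 0.04 with spike-in scaling. The shares of all genes lower under these settings are not given here.

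Among members with a known special role, Rps6, the substrate of the S6 kinases, fell from a mean of 103 to 87.5 CPM (log2 fold change −0.22, edgeR adjusted p = 0.0207). Rpl5 and Rpl11 form with 5S ribosomal RNA the particle that binds Mdm2. Rpl5 fell by 0.22 on the log2 scale (edgeR adjusted p = 0.0184), whereas the Rpl11 libraries overlapped (−0.27, SE 0.23, edgeR adjusted p = 0.352). Of the stalk proteins that recruit elongation factors, Rplp2 fell (−0.35), Rplp1 had a fold change of −0.03 (adjusted p = 0.856) and Rplp0 rose. Rpsa, which also occurs as a laminin-binding protein, had a fold change of −0.19 (adjusted p = 0.0582), and Rpl38, known for its effect on Hox messenger translation, one of −0.35 (adjusted p = 0.0396), which was −0.17 and did not pass with copies added.

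The 4 members that rose were Rpl3l, Rps27l, Rplp0 and Rps19. Rplp0, the stalk base, was at 1076, 998, 1094 and 1124 CPM in Control and at 1403, 1318, 1159 and 1122 CPM in Mta123KO labelled 2iL. The groups overlapped and only line 1 was clearly higher, with a log2 fold change of 0.24 (SE 0.08, edgeR adjusted p = 0.0404) that passed in 2 of the 8 fits that left out 1 library. Rps19, whose human counterpart is mutated in Diamond-Blackfan anaemia, was at 190.0 to 206 CPM in Control and at 219 to 239.7 CPM in Mta123KO, without overlap (0.21, SE 0.05, edgeR adjusted p = 0.0106). With the counts of its 7 copies added the Rps19 fold change was −0.02.

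In cells labelled 48 h the members again lay lower in Mta123KO. Of the 84, 62 were lower, against 23.4% of the 21079 genes tested, and 2 were higher, against 26.6% (edgeR, as above). The median of the members was −0.35 and that of all genes 0.01. Every Mta123KO library lay below every Control library for 59 members, against 23.8% of all genes, and above for 2, against 24.6%. By subunit, 37 of 52 large subunit genes fell and 2 rose (median −0.36), and 25 of 32 small subunit genes fell and none rose (median −0.33). The mitochondrial ribosomal protein genes had a median of −0.16, the Nduf genes one of −0.08, and other protein-coding genes of at least 50 CPM and under 3000 bases of exon one of −0.17, with 39.4% lower.

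Rps12 had the most negative fold change, with 44.9, 49.2, 51.1 and 44.9 CPM in Control labelled 48 h and 19.5, 21.1, 31.6 and 26.0 CPM in Mta123KO (−0.94, SE 0.14, edgeR adjusted p = 0.000614). Line 1 of the mutant was the lower of the pair. Rpl11 was at 31.1, 32.5, 34.3 and 30.03 CPM in Control and at 22.4, 21.7, 15.5 and 14.5 CPM in Mta123KO (−0.78, SE 0.15, edgeR adjusted p = 0.0022). Here the mutant line 2 was the lower, so the lines did not move as a unit for every gene.

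Rps27a, which is made as a fusion to ubiquitin, fell from a mean of 32.0 to 19.8 CPM (−0.68, edgeR adjusted p = 0.000706), and Rps29 fell by 0.69 (edgeR adjusted p = 0.00582). With copies added the fold changes were −0.46 for Rps12, −0.24 for Rpl11, −0.38 for Rps27a and −0.18 for Rps29, of which that of Rps29 no longer passed. In all, 60 members were lower and 2 higher with copies added, and the medians of members and of all genes were −0.30 and 0.002. The shares of all genes lower with copies added or with summed lines are not given here. With the libraries of each line summed 11 members passed, 10 lower, among them Rpl13, Rpl21, Rpl28, Rpl30, Rpl35a, Rps12, Rps23 and Rps27a, and Rpl39l higher. Rps6 (−0.35), Rpl5 (−0.32), Rplp1 (−0.26), Rplp2 (−0.47), Rpsa (−0.27) and Rpl38 (−0.37) all passed as lower, Rpl38 not with copies added. Rplp0 and Rps19, higher with the 2iL label, had fold changes of 0.01 and 0.00 here, and that of Rps19 was −0.21 with copies added.

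**Figure D2:**
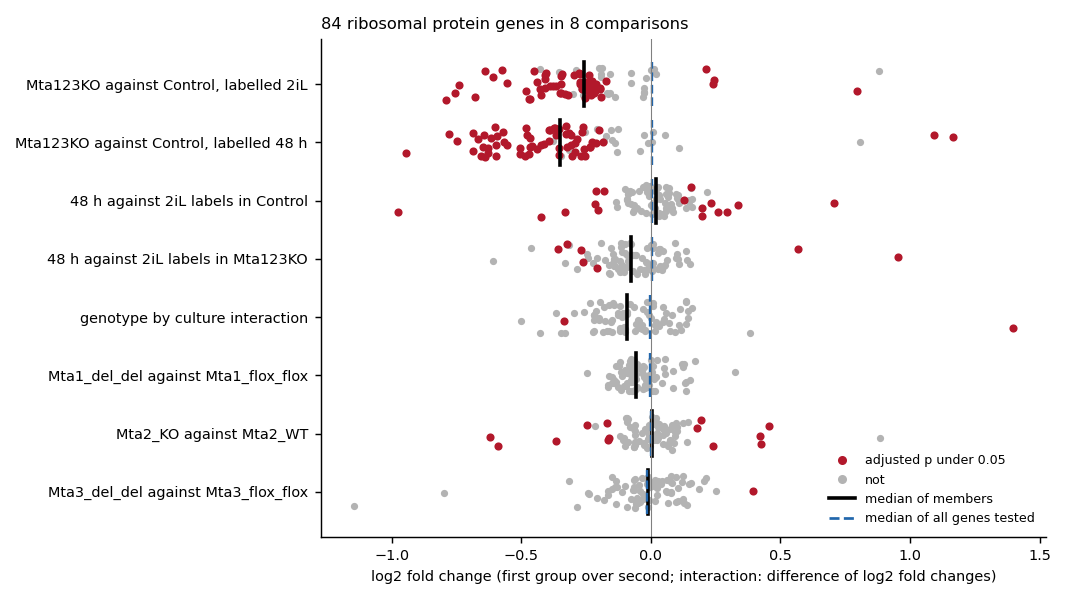
Log2 fold change (first group over second, for the interaction a difference of log2 fold changes) of each of the 84 members in the 8 comparisons, where red points passed an adjusted p under 0.05, black bars are member medians and dashed blue bars are medians of all genes tested. The members shift left of the all-gene median in the 2 comparisons of Mta123KO with Control (−0.26 and −0.35) and lie about it in the single mutants (−0.06, 0.00 and −0.01).

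The members that were lower overlapped between the 2 labels, which share lines but no library. The number lower under both was 49, which is 92.5% of the 53 lower with the 2iL label and 79% of the 62 lower with the 48 h label. With 53 and 62 of the 84 members lower, a large overlap follows from these counts alone. The share of all genes lower under both labels was not taken. Rpl3l alone was higher under both, and no member passed in opposite directions. Under neither label did 13 members pass, among them Rps2, Rpl19, Rps28, Rpl15 and Rpl22l1, whose fold changes lay between −0.18 and 0.02, and Rpl29, Rpl31, Rpl37a, Rpl7 and Rps3a1, which differed between the lines.

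Both mutant lines lay below the controls. With the 2iL label, 76 of the 84 members were below the Control mean in line 1 (median log2 difference −0.32) and 73 in line 2 (−0.24). With the 48 h label, 81 were below it in line 1 (−0.49) and 72 in line 2 (−0.25). The difference between the lines themselves was large for a few genes. In Mta123KO, the lines differed by more than 1.5-fold under both labels for Rpl29, Rpl3, Rpl31, Rpl37a, Rpl7, Rps3a1 and Rps7, and in Control for Rpl29. The share of all genes that differed as much was not taken, so nothing is read from these numbers about the family. Rpl31, Rpl37a and Rpl7 are the 3 members on chromosome 1. In Mta123KO against Control, the median of all genes tested there was 0.16 (2iL) and 0.14 (48 h), the highest of the chromosomes with members. On that chromosome 15.05% and 17.13% of genes were lower. The lines were not compared by chromosome, and a cause was not tested.

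Rps3a1, another small subunit protein, was at 257, 254, 171 and 167 CPM in Control labelled 2iL and at 115, 111, 200.2 and 236 CPM in Mta123KO. Line 1 was the higher in Control and line 2 in Mta123KO, and the fold change did not pass (−0.34, SE 0.27, edgeR adjusted p = 0.312). Rpl29, a protein also known to bind heparin, was at 107, 104, 42.2 and 39.0 CPM in Control and at 173, 165, 96.6 and 96.3 CPM in Mta123KO labelled 2iL. With the 48 h label it was at 109, 110.5, 38.03 and 37.5 CPM in Control and at 173, 161, 86.8 and 92.8 CPM in Mta123KO. Line 1 was higher than line 2 in either genotype, and mutant line 2 lay below control line 1 under both labels. Line numbers were not taken to match lines between the genotypes. Over all libraries the fold changes of 0.88 (SE 0.37) and 0.81 (SE 0.41) did not pass (edgeR adjusted p = 0.0759 and 0.13).

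**Figure D3:**
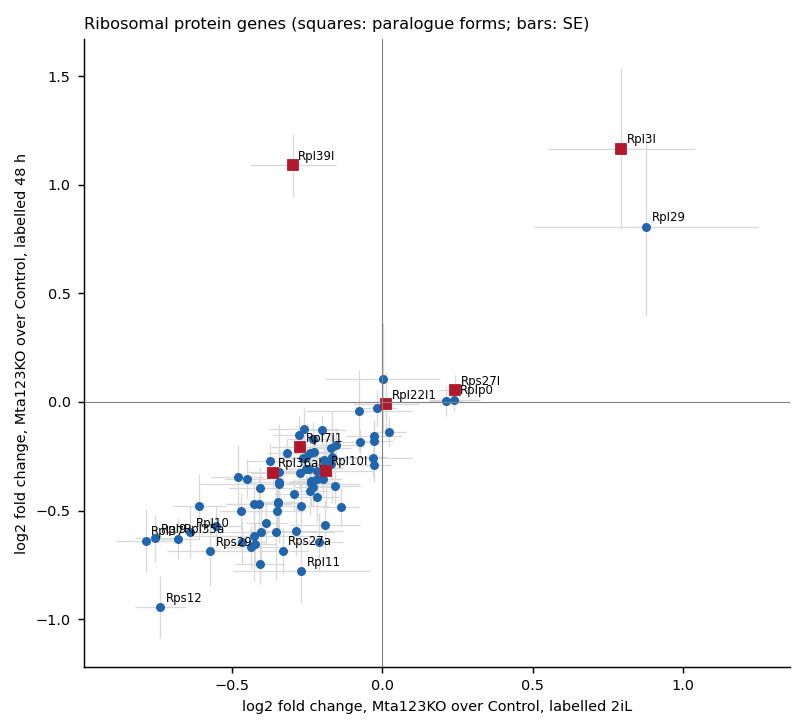
Log2 fold change of Mta123KO over Control for each member with the 2iL label (horizontal axis) and the 48 h label (vertical axis), with bars for the SE and squares for the paralogue forms. Of the 84 points, 76 lie left of 0 and 77 below it, Rps12 is the lowest at −0.94, and Rpl3l and Rpl39l stand apart above the others at 1.17 and 1.09 on the vertical axis.

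The fold changes were also set beside features of the genes. The 22 members with CTTTC at the start, as in the Rpl35a and Rps27 sequences above, had a median of −0.28 with the 2iL label, and 17 were lower, and the 42 without it had −0.27, with 25 lower. With the 48 h label the medians were −0.39 (19 lower) and −0.32 (26 lower). The members with CCGGAAG had medians of −0.27 and −0.33 and those without −0.26 and −0.35. By number of copies the medians with the 48 h label were −0.31 for 0 or 1 copy, −0.35 for 2 to 9 and −0.46 for 10 or more, and with the 2iL label −0.24, −0.26 and −0.28. These are descriptions, without a test between the classes.

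The paralogue forms, encoded by separate genes and in several cases known from particular tissues, included some of the members that moved against the rest. Rplp0 and Rps19, which rose with the 2iL label, are not paralogue forms. Rpl39l, known from the testis, was at 7.47, 10.5, 9.80 and 11.0 CPM in Control labelled 2iL and at 7.84, 7.91, 6.61 and 8.76 CPM in Mta123KO, overlapping (−0.30, SE 0.14, edgeR adjusted p = 0.11). With the 48 h label it was at 5.48, 8.52, 6.44 and 8.18 CPM in Control and at 15.9, 15.4, 14.0 and 15.2 CPM in Mta123KO. All 4 of these mutant libraries lay above every other library of the set, and the log2 fold change was 1.09 (SE 0.14, edgeR adjusted p = 0.000298; 0.02 with lines summed). Its parent Rpl39 did not pass under either label, with −0.26 (adjusted p = 0.0913) and −0.13 (adjusted p = 0.313). Rpl39l stood at 18.2 CPM per kilobase of exon and Rpl39 at 74.7 CPM per kilobase in Mta123KO labelled 48 h, so the paralogue remained the lower of the pair, although Rpl39 has 9 copies and Rpl39l none.

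Rpl3l, known from striated muscle, was near the detection limit. It was at 0.679, 0.790, 0.621 and 0.954 CPM in Control and 0.977, 1.04, 1.70 and 1.51 CPM in Mta123KO labelled 2iL, and at 0.247, 0.578, 0.192 and 0.536 CPM and 0.809, 0.616, 1.09 and 0.913 CPM with the 48 h label. The groups did not overlap, with log2 fold changes of 0.80 (SE 0.25) and 1.17 (SE 0.37), and edgeR adjusted p of 0.0229 and 0.0263. Each call held in 4 of the 8 fits that left out 1 library.

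Rps27l, a p53-responsive relative of Rps27, rose from 94.9, 97.1, 88.1 and 87.8 CPM to 111, 108, 103 and 108 CPM with the 2iL label (0.24, SE 0.06, edgeR adjusted p = 0.00674) and overlapped with the 48 h label (0.06, adjusted p = 0.532). Rps27 itself fell from a mean of 8.87 to 5.74 CPM (−0.61, edgeR adjusted p = 0.000485) with the 2iL label and from 8.40 to 5.98 CPM with the 48 h label (−0.48, adjusted p = 0.0242). The order of the pair depended on the files: Rps27l stood at 113 CPM per kilobase of exon and Rps27 at 8.50 CPM per kilobase in Control labelled 2iL, but at 185 and 735 CPM per kilobase in Mta2_WT, and Rps27 has 4 copies and Rps27l none.

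Of the other forms, Rpl36al fell under both labels (−0.37 and −0.33, edgeR adjusted p = 0.00252 and 0.00652) and Rpl7l1, a nucleolar relative of Rpl7, only passed with the 2iL label (−0.27, adjusted p = 0.041, and −0.21, adjusted p = 0.0673). Whether these 2 fold changes differ was covered by the interaction, in which Rpl7l1 did not pass. Rpl22l1, the paralogue that Rpl22 represses, had fold changes of 0.01 and −0.01 (adjusted p = 0.934 and 0.958), while Rpl22 fell by 0.30 and 0.42. Rpl10l, an autosomal retrogene of X-linked Rpl10 whose reads may be shared with it, had −0.19 and −0.32 (adjusted p = 0.34 and 0.117), and Rpl10 fell by 0.64 and 0.60.

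**Figure D4:**
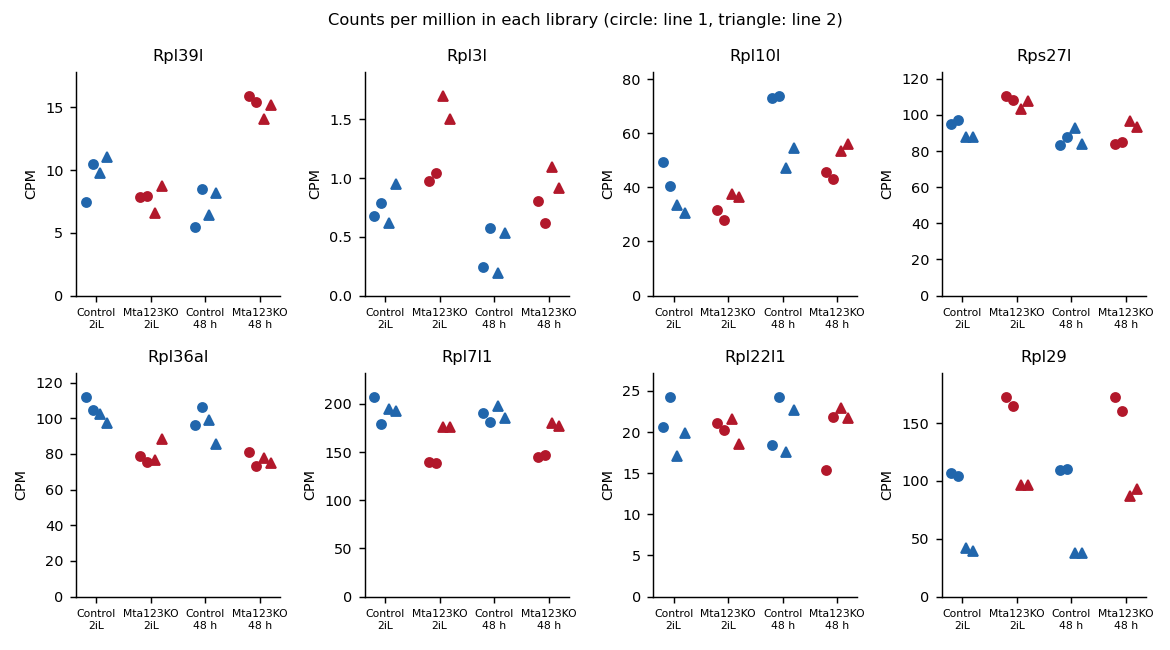
CPM in each Control (blue) and Mta123KO (red) library for the 7 paralogue forms and Rpl29, with circles for line 1 and triangles for line 2 and a separate axis from 0 for each gene. The 4 Mta123KO libraries labelled 48 h are the highest for Rpl39l (14.0 to 15.9 CPM), and Rpl29 splits by line in every group.

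Between the 2 culture labels the family as a whole moved little. In Control cells 9 members were higher with the 48 h label, where 29.5% of 21240 genes were, and 7 lower, where 29% were (edgeR as above), and the median was 0.02. Rpl10l rose from 49.3, 40.6, 33.5 and 30.5 CPM to 73.1, 73.8, 47.0 and 54.5 CPM, rising in each line although the groups overlapped (0.71, SE 0.17, edgeR adjusted p = 0.00449). Rps15a rose from 87.5 to 92.4 CPM up to 100.5 to 118 CPM (0.34, edgeR adjusted p = 0.000602), and Rps24 from a mean of 387 to 469 CPM (0.29). The others higher were Rpl17, Rpl10a, Rps20, Rps2, Rpl32 and Rpl15, by 0.13 to 0.26.

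The members lower with the 48 h label in Control included Rpl3l (−0.97), Rpl39l (−0.43), Rpl27 (−0.33), Rpl41 (−0.22), Rps21 (−0.21) and Rpl35 (−0.20). Rpl41, the very short arginine-rich and lysine-rich protein, was at a mean of 659.7 CPM with the 2iL label and 562 CPM with the 48 h label, without overlap. The Rpl27 change was −0.04 and did not pass with copies added. Without Control replicate 2_2 labelled 2iL, 10 members passed in all.

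In Mta123KO cells 2 members were higher with the 48 h label (12.4% of 21505 genes), both of them paralogue forms, and 5 lower (10%), with a median of −0.08. Rpl39l rose from a mean of 7.78 ± 0.888 to 15.1 ± 0.792 CPM (SD, n = 4; 0.95, SE 0.11, edgeR adjusted p = 0.000658). Rpl10l rose from a mean of 33.3 to 49.5 CPM (0.57, SE 0.12, edgeR adjusted p = 0.0125). Those lower included Rps21, Rpl21, Rps27l and Rps26, by 0.21 to 0.32. The replicate numbers were taken to pair the libraries here, although only 5 of 8 libraries correlated best with their own number. With a replicate block 15 members passed, 2 higher and 13 lower. Summing the libraries of each line left no member past the threshold, and leaving out 1 library gave 3 to 5, the fewest without Mta123KO replicate 1_1 under either label or 1_2 labelled 48 h.

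The difference between the genotypes in their response to culture was tested as an interaction over all 16 libraries. It passed for Rpl39l, higher, where 12.5% of 22973 genes passed in that direction, and for Rps15a, lower, where 10.6% did. Rpl39l had an interaction of 1.40 (SE 0.21, edgeR adjusted p = 0.000183), falling with the 48 h label in Control and rising in Mta123KO, and it passed in all 16 fits that left out 1 library and with lines summed (1.42, adjusted p = 0.025). Rps15a was at 91.4, 89.1, 92.4 and 87.5 CPM in Control labelled 2iL and at 100.5, 116, 118 and 116 CPM in Control labelled 48 h, and at 81.4, 86.5, 73.8 and 81.5 CPM and 73.6, 72.1, 89.8 and 84.4 CPM in Mta123KO. Its interaction (−0.34, SE 0.11, edgeR adjusted p = 0.0361) passed in 4 of the 16 such fits and not with copies added (−0.27).

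Other proteins of the cytosolic ribosome whose symbols the rule does not take were also measured. Fau, whose product carries the small subunit protein eS30, was lower in Mta123KO by 0.69 and 0.63 with the 2iL and 48 h labels (edgeR adjusted p = 0.000199 and 0.000177). Rack1, the scaffold on the small subunit, was lower by 0.24 and 0.36. For the lists that follow, the shares of all genes tested were 24.2% lower and 27.1% higher with the 2iL label and 23.4% and 26.6% with the 48 h label, and the all-gene medians were 0.01. Of 14 translation factors and other genes known for TOP starts, 7 were lower and 3 higher with the 2iL label (median −0.18), and 8 lower and 1 higher with the 48 h label (−0.25). Eef1g fell by 0.68 and 0.85 and Hnrnpa1 by 0.35 and 0.59, but Nap1l1 rose by 0.24 under both and Pabpc1 by 0.70 with the 2iL label.

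The noncoding host genes of small nucleolar RNAs, whose spliced transcripts also begin with TOP tracts, were lower for 4 of 5 with the 2iL label and for 5 of 5 with the 48 h label (medians −0.38 and −0.84), with Snhg12 at −0.49 and −1.24 and Gas5 at −0.38 and −0.84. Of 28 ribosome biogenesis genes, 6 were lower and 2 higher with the 2iL label (median −0.03), where the share lower is near that of all genes, and 11 lower and 2 higher with the 48 h label (−0.22). Rrn3, which recruits RNA polymerase I, was at −0.52 and −0.13, the latter not past the threshold, and Nip7, a large subunit assembly factor, at −0.45 and −0.41. Of 5 dedicated chaperones and binding partners 2 were lower and 1 higher, and then 3 lower and 1 higher, with Bccip at −0.75 and −0.68.

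Of 8 regulators of these genes, 3 were lower and 1 higher with the 2iL label, and 3 lower and 2 higher with the 48 h label, so nothing is read from these counts. Larp1, which binds TOP starts, fell by 0.25 and 0.26 and Eif4ebp1, a target of mTOR, by 0.51 and 0.50, whereas Rps6kb1, the S6 kinase gene, rose by 0.38 and 0.17. Myc fell by 1.97 with the 2iL label and was at 0.29 with the 48 h label (adjusted p = 0.7), where Mycn fell by 0.68 and Rptor rose by 0.16. Mtor did not pass (0.13 and 0.11). Summed levels of cell state and cell type markers also separated the genotypes. With the 2iL label, 4 formative genes summed to 752 to 1292 CPM in Control and 229 to 309 CPM in Mta123KO, and 6 naive genes to 147 to 231 CPM and 392 to 529.9 CPM. Neural markers (4 genes) ran from 75.2 to 96.9 CPM and from 32.9 to 42.9 CPM, trophoblast markers (4 genes) from 3.32 to 4.10 CPM and from 12.8 to 29.4 CPM, and fibroblast markers (5 genes) from 1.23 to 2.57 CPM and from 6.46 to 7.96 CPM. With this label the general pluripotency and primitive endoderm sums overlapped between the genotypes. Of the 4 formative genes tested 3 were lower and 1 higher, and of the 6 naive genes 4 were higher and 0 lower.

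With the 48 h label, the naive sum was 3571 to 3925 CPM in Control and 1868 to 2759 CPM in Mta123KO, and that of the 4 general pluripotency genes 1068 to 1176 CPM and 780 to 1008 CPM. Primitive endoderm markers (5 genes) ran from 4.34 to 4.88 CPM and from 17.3 to 21.2 CPM. The neural, trophoblast and fibroblast sums were also higher in every Mta123KO library, at up to 39.5 CPM, while the formative sums overlapped. The genes of some lists did not move together. Of 3 neural genes tested, 1 was higher and 1 lower (median −0.89). Of 5 primitive endoderm genes 3 were higher and 1 lower, and of 4 general pluripotency genes 1 was higher and 2 lower. Of the 4 neural genes, 3 averaged 1 CPM or more in Control and 1 did in Mta123KO. The part of these differences, abundant formative and naive genes included, in the ribosomal protein results was not tested.

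In the single mutants few members or none passed. In Mta1_del/del cells none of the 84 members passed against Mta1_flox/flox, as did 0% of 14561 genes in either direction. No member had an unadjusted p under 0.05, as 50 of the 14561 genes did, and no member passed with DESeq2. The member median was −0.06, and the fold changes ran from −0.25 (Rpl36a) to 0.32 (Rpl39l). Leaving out 1 library moved that median from −0.15 (without Mta1_flox/flox replicate 3) to 0.10 (without Mta1_flox/flox replicate 1), and it was −0.14 without Mta1_del/del replicate 1, −0.10 without Mta1_flox/flox replicate 2 and 0.04 without Mta1_del/del replicate 3, so it has no settled direction. Among 863 other protein-coding genes of at least 50 CPM and under 3000 bases of exon the median was 0.06. Mta1 itself was at a mean of 43.1 CPM against 84.3 CPM and did not pass either (−0.97). The libraries of this pair were spread widely, as shown by Rpl10l at 120.3, 99.9 and 37.3 CPM in the mutant and 96.8, 115 and 48.4 CPM in the parent, where the libraries numbered 3 were the low ones in both.

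In Mta2_KO cells, in which Mta2 fell by 4.50, 6 members were higher and 7 lower than in Mta2_WT, where 23.5% and 24.3% of 15602 genes were (edgeR, 3 libraries a group), and the median was 0.00 (−0.04 to 0.03 when 1 library was left out). The 3 lowest were Rps3a1, Rps27 and Rpl34, all on chromosome 3. Rps3a1 was at 662, 741 and 690.1 CPM in Mta2_KO and at 1094, 1056 and 1053 CPM in Mta2_WT (−0.62, SE 0.06, edgeR adjusted p = 1.92e-05). Rps27, whose start is printed above, was at 514, 534 and 489 CPM and at 801, 716 and 783 CPM (−0.59, SE 0.06, edgeR adjusted p = 5.09e-05). Neither pair of groups overlapped.

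Rpl34 was at 567, 629 and 601 CPM in Mta2_KO and at 776, 760.2 and 767 CPM in Mta2_WT (−0.36, SE 0.05, edgeR adjusted p = 0.000492). The remaining member on chromosome 3, Rpl22l1, was at −0.22 (adjusted p = 0.055). The whole of that chromosome lay lower: its 736 genes tested had a median of −0.50, and 62.8% of them were lower, whereas the medians of the other chromosomes with members lay between −0.04 and 0.08. The 3 members lay on either side of that median, and genotype and line cannot be told apart with a single Mta2_KO line.

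Away from chromosome 3, Rps2 (−0.25), Rpl10l (−0.17), Rpl7l1 (−0.17) and Rpl12 (−0.16) were lower in Mta2_KO. Of the 6 members that were higher, 3 were paralogue forms. Rpl39l was at 18.9, 21.6 and 18.9 CPM in Mta2_KO and at 14.9, 13.5 and 14.8 CPM in Mta2_WT (0.46, SE 0.08, edgeR adjusted p = 0.00156). Rps27l was at 197, 213 and 202 CPM and at 159, 140.1 and 154 CPM (0.43, SE 0.06, edgeR adjusted p = 0.000227), and Rpl36al at 194, 209.8 and 195 CPM and at 155, 143 and 149 CPM (0.42, SE 0.05, edgeR adjusted p = 0.000104). None of the 3 overlapped between the groups, and Rps16 and Rpl37 were also higher, by 0.24 and 0.18.

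**Figure D5:**
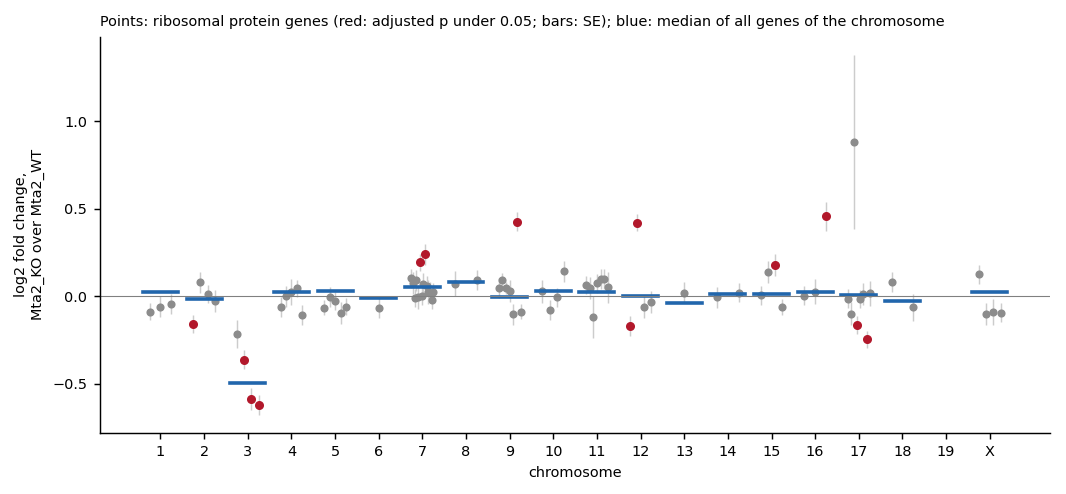
Log2 fold change of Mta2_KO over Mta2_WT for each member by chromosome, with bars for the SE, red for members past an adjusted p under 0.05 and blue lines for the median of all genes tested on the chromosome. The blue line of chromosome 3 lies at −0.50 with its 4 members at −0.62 to −0.22, and the other lines lie near 0.

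In Mta3_del/del cells, in which Mta3 fell by 2.63, 1 member was higher than in Mta3_flox/flox, where 8.32% of 15522 genes were (edgeR). None was lower, where 7.84% of genes were. An unadjusted p under 0.05 was found for 2 members and for 5602 of the 15522 genes. The median of the members was −0.01 (−0.10 to 0.06 when 1 library was left out). It was past 0 without Mta3_del/del replicate 1 or 2 or Mta3_flox/flox replicate 3. Among the 863 other protein-coding genes of the class named above it was 0.27, against −0.01 for the 79 members of at least 50 CPM. That gap was wider than in Mta123KO labelled 2iL, where the corresponding medians were −0.11 and −0.22, and it was not tested. The 1 member was Rpl7l1, at 241, 229.98 and 265 CPM in the mutant and 177, 170.2 and 189.8 CPM in the parent, without overlap (0.40, SE 0.09, edgeR adjusted p = 0.0244). The call was lost in each fit that left out 1 library, except that without Mta3_del/del replicate 2, and DESeq2 also made 1 call. Rpl39l, at 6.03, 5.51 and 10.9 CPM against 6.65, 15.9 and 14.4 CPM, overlapped (−0.80, adjusted p = 0.143). Whether the single mutants differ from the triple mutants was not tested, since the sets were counted on different gene lists.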

How the data were processed

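Total RNA of ES cells was sequenced after library preparation with a NEXTflex directional kit or a SMARTer Pico kit, and the sources used here do not say which library used which. The authors deposited raw counts of reads per gene, 1 library a file, made by trimming with Trim Galore, alignment to GRCm38 with TopHat2 and counting with featureCounts. The triple-mutant set is paired-end and the single-mutant set single-end. How multi-mapping reads were treated and the strand setting were not given in the sources used here, and both can move reads between a ribosomal protein gene and its copies. Groups and replicate numbers were taken from the labels, and the first part of a replicate number (1_1) was read as the line.

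Gene symbols and types were matched by identifier to the GENCODE annotation of GRCm38, for 48349 of 48709 genes and 21852 of 22018 genes. Counts were fitted with edgeR 4.0.16 (R 4.3.3), with TMM scaling, filterByExpr and the quasi-likelihood test, on the groups compared only (all 16 libraries for the interaction), with p adjusted by Benjamini-Hochberg over all genes tested and a threshold of 0.05. The 92 spike-ins listed in the triple-mutant files stayed out of totals and fits. CPM was taken over the TMM-scaled total of the genes that passed the filter, scaled within each set. Same-line pairs of libraries differed beyond counting noise (chi-square over its degrees of freedom, 6.33 or more), so none was taken for a library deposited in duplicate. Copies were annotated pseudogenes found with blastn 2.17.0 at 95% identity or more over at least 100 bases. The procedure was tested on simulated counts. A few genes are not reported here by name.

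Genes named were, for each comparison, the 5 largest changes in each direction past the threshold in genes whose higher group averaged 1 CPM or more, the paralogue forms with their parents, members with known special roles, and genes of fixed lists (other ribosomal proteins, TOP genes, small nucleolar RNA hosts, biogenesis factors, chaperones, regulators, cell type markers). Members named for their line difference, their pseudogene copies or a lost call were chosen after their values were seen. The members, lists and rules were chosen with earlier results of these data known. Replicate numbers are shared by the groups compared. The deviations of same-numbered libraries from their group means correlated over 0.1 in every pair for the culture comparisons and for Mta1. The correlations were 0.221 to 0.289 in Control, 0.495 to 0.541 in Mta123KO and 0.445 to 0.641 for Mta1. The numbers were taken to pair the libraries there. Libraries that correlated best with their own number were 8 of 8 in Control, 5 of 8 in Mta123KO and 6 of 6 for Mta1. Alternatives were DESeq2 1.42.0, RLE scaling, library totals, spike-in scaling, no filter, the replicate block, one fit of a set, summed lines, a fold threshold, other denominators and leaving out each library.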

Additional observations from a re-analysis of the deposited data

Results flagged for a closer look

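The difference between genotypes in the response to the culture label passed for 2 members, Rpl39l (1.4 on the log2 scale) and Rps15a (−0.34). Among the 4-library groups, 188 were checked for a library far from the others by Dixon's test, which flags about 1 in 20 by chance, and 3 were found. Rpl34 stood at 18.04 CPM in Control labelled 2iL replicate 1_2, where the others were at 20.51 to 20.84 CPM. Rplp2 stood at 31.64 CPM in Control labelled 48 h replicate 2_2, where the others were at 38.75 to 40.13 CPM. Rps15a stood at 100.5 CPM in Control labelled 48 h replicate 1_1, where the others were at 115.7 to 117.9 CPM. The causes were not tested.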

How the results depend on the processing

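The direction of the 2 member medians for Mta123KO against Control was negative under each alternative run. With summed lines the counts of members past the threshold were 5 (2iL), 11 (48 h), 6 (culture in Control), 0 (culture in Mta123KO) and 1 (interaction), which leaves 2 samples a group. A required absolute log2 fold change above 1 left 0 (2iL), 2 (48 h), 0 and 0 (culture), 1 (interaction), 0 (Mta2) and 0 (Mta3). Spike-in scaling gave 22 (2iL), 4 and 2 (culture in Control and Mta123KO), with member medians of −0.54 (48 h), 0.20 (culture in Control) and −0.32 (interaction), where the medians of all genes were −0.18, 0.18 and −0.22. One fit of a set gave 11 for culture in Mta123KO and 4 for Mta2. For culture in Mta123KO no filter gave 4 and copies added 4, and for the interaction DESeq2, RLE scaling and library totals gave 4 each. Group mean shares over protein-coding genes were 2.71% (Control) and 2.37% (Mta123KO) labelled 2iL and 2.60% and 2.19% labelled 48 h, and over genes listed in both sets 2.69%, 2.35%, 2.59% and 2.18%. With copies added, which was chosen after seeing the data, Rps19 turned to −0.024 (2iL) and −0.21 (48 h), and Rpl11 to −0.16 for culture in Control. The cause of these changes was not tested, and the shares of all genes that passed under each alternative are not given here.

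Leaving out 1 library gave 42 to 62 members (2iL), 52 to 64 (48 h), 10 to 17 and 3 to 5 (culture in Control and Mta123KO), 1 to 5 (interaction), 0 (Mta1), 9 to 15 (Mta2) and 0 to 1 (Mta3). With the replicate block the counts were 47 (2iL), 56 (48 h), 20 and 15 (culture), 3 (interaction), 0 (Mta1), 9 (Mta2) and 1 (Mta3). The numbers did not pair the libraries of Mta123KO and Control, where same-numbered deviations correlated at −0.226 to −0.0301 (2iL) and −0.0921 to 0.0194 (48 h) and 0 of 8 libraries correlated best with their own number, nor those of Mta2 and Mta3, where 3 of 6 did.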
